A study of Mus musculus with 2 samples.

Results

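Type B intercalated cells are the rare cells of the connecting tubule and collecting duct that secrete bicarbonate into the urine. They were chosen here on their own transcripts: a cell was a member with at least 1 unique molecular identifier (UMI, 1 count per captured transcript) of Atp6v1g3, at least 2 of Slc26a4, 0 of Slc4a1 and 0 of Ptprc. This rule found 175 members among 19478 kept cells of mouse kidney, 114 in the control library and 61 in the haplodeficient library. Those 4 genes therefore describe the choice and support nothing below.

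The study profiled single cells of kidneys injured by clamping 1 renal artery, in mice then given 4 tamoxifen injections and examined at day 14. The control library carried the genotype Cre-, and the labels do not say whether its mice also carried the floxed Phd3 allele. The haplodeficient library carried Cdh5-CreERT2; Phd3f/+, so a tamoxifen-activated Cre under the endothelial Cdh5 promoter was to delete 1 copy of Phd3 (gene symbol Egln3, a prolyl hydroxylase that marks hypoxia-inducible factors for destruction) in endothelium, not in tubule cells. The kidneys of both libraries were injured, and the labels give neither an uninjured kidney nor the number of mice. A batch difference between the libraries cannot be told apart from a genotype difference. With 1 library per group there is no test between groups, and intervals cover counting error only.

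As background, intercalated cells are filled with a proton pump, the V-ATPase, and come in opposite polarities. Type A cells pump protons into the urine and return bicarbonate to the blood through Slc4a1 (AE1), whereas type B cells place pendrin, the chloride/bicarbonate exchanger encoded by Slc26a4, on the urinary side. Carbonic anhydrases supply the bicarbonate, and Slc4a9 (AE4) on the blood side of the cell is a hallmark of type B cells. The forkhead factor Foxi1 is required for both types.

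Members held 1062 to 62224 UMIs per cell in the control library (median 20642.5) and 4511 to 76713 in the haplodeficient library (median 24838), above the medians of all kept cells, 9160 and 5861.5. Their median mitochondrial share was 10.6% in control and 5.33% in haplodeficient cells. Of all kept barcodes, 28 occurred in both libraries, and 0 of them was a member. Free RNA, estimated as a median over 31 and 39 markers of other cell types, made up 10.2% of control and 1.15% of haplodeficient member UMIs. The marker lists disagreed. Proximal tubule markers stood at 3025 and 283 UMIs per 1000000 in members, against 22892 and 2518 in free RNA. Leukocyte markers other than Ptprc stood at 17.8 and 42.2, against 1296 and 7914. Free-RNA parts of single genes given below rest on the median. Egln3 itself gave 6 UMIs in 114 control members and 3 in 61 haplodeficient members. In cells with at least 2 Pecam1 UMIs, at least 1 Cdh5 UMI and no Ptprc, it stood at 17.1 UMIs per 1000000 UMIs (counts per 1000000, CPM, with the interval 13.4 to 21.6) in control and 14.8 (12.3 to 17.5) in haplodeficient cells. The labels do not say which part of the gene is deleted, and 3′ counts outside that part check nothing.

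The members carried the markers given for type B cells. Slc4a9, which the rule did not use, had a UMI in 109 of 114 control members (95.6%) and in 61 of 61 haplodeficient members. After thinning to 2000 UMIs per cell, which left out 2 shallower control members and 21 and 33 macrophages, Slc4a9 was seen in 69.6% and 78.7% of members and in 1.11% and 1.88% of macrophages, a cell type that should lack it. Slc4a9 was not confined to members among intercalated cells. Type A cells, taken by the rule below, held it too, at lower levels that are given with the bicarbonate list. Hmx2, a homeobox factor of type B cells, had a UMI in 60.5% of control and 50.8% of haplodeficient members, and after thinning in 20.5% and 18.0% against 0.277% and 0% of macrophages. Of the 9 listed type B markers other than Slc26a4, which the rule required, 8 had a UMI in each library. The exception was Dgki, at 0 in both, which allows up to 1.24 CPM in the control and 1.62 CPM in the haplodeficient members. Such a count does not set type B cells apart, because lists of other cells reached it too. Of 10 type A markers other than Slc4a1, 9 had a UMI in control and 10 in haplodeficient members. All 13 principal or connecting tubule markers had one in both. Only 4 control members and 0 haplodeficient members lacked Slc4a9, Hmx2 and Insrr together.

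The 2 genes that best separate the kinds of intercalated cell were far apart by construction, and others that the rule did not read lay apart in both libraries. Type A cells were taken by the mirror rule (at least 2 Slc4a1 UMIs, no Slc26a4, no Ptprc), which gave 103 control and 23 haplodeficient cells. Because the rule sorted these same cells, what follows is a description. Hmx2, at chr7:131548773-131558014 on the plus strand (GRCm38), gave 515 and 140 UMIs in members and 0 and 0 in type A cells. Insrr, an insulin receptor-related kinase that senses alkaline fluid (chr3:87796951-87816101, plus strand), stood at 102 and 93.6 CPM in members against 2.43 and 4.16 CPM in type A cells. Thsd7a was at 198 and 210 CPM in members against 11.2 and 20.8 in type A cells. The growth-factor binding gene Igfbp5 was at 181 and 112 CPM against 23.8 and 2.08.

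Rnase1, a secreted ribonuclease, was at 144 and 70.8 CPM in members against 20.4 and 8.32 in type A cells. Dcn, usually a gene of fibroblasts, was at 81.4 and 62.2 CPM against 0.487 and 6.24, and 1 control member held 38.1% of that library's Dcn UMIs. The others of the first 10 were Slc26a4 itself, Ripor2, Nbea and Myo5a. Toward type A cells, after Slc4a1, the widest gap in the control library was that of Aqp6, a water and anion channel of type A vesicles, at 869 and 478 CPM in type A cells. In the haplodeficient library Slc35f1 lay further apart, with a log2 ratio of members over type A cells of -3.11 against -2.98 for Aqp6. Kit, a receptor kinase, was at 273 and 391 CPM in type A cells against 46.3 and 53.5 in members. Mme, Clnk, Ckb, Pbx3, Pdlim3 and Rbms3 completed that group.

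**Figure D1:**
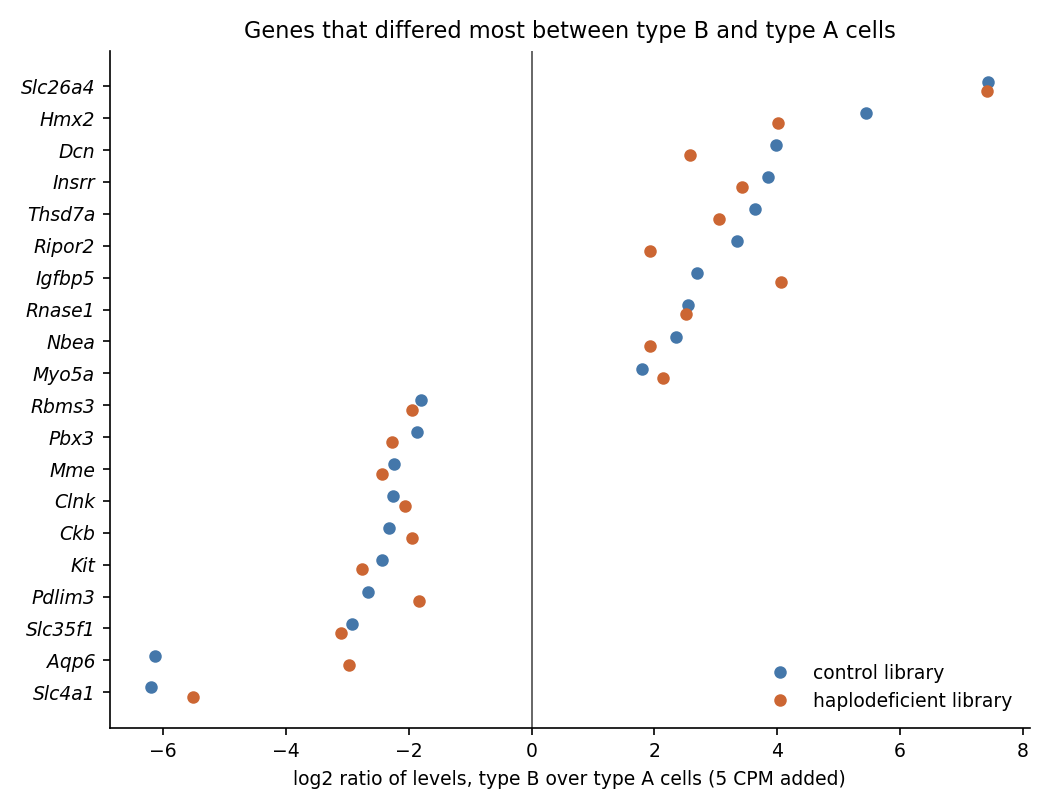
Log2 ratio of summed levels in type B over type A cells (5 CPM added to each level) for the 20 genes that differed most in both libraries; each point is 1 library and there are no error bars because each library is 1 sample. Slc26a4 and Slc4a1 were used to choose the cells, and Aqp6 is the gene whose gap differs most between the libraries.

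Shared intercalated genes were present in members of both libraries. Leaving out Atp6v1g3, which the rule required, all 11 listed had UMIs, and their summed level was 3935 CPM in control and 4000 CPM in haplodeficient members, against 896 and 799 CPM in free RNA. Not every gene of the collecting duct separated cleanly from the members. Markers of principal and connecting tubule cells summed to 4510 and 3919 CPM in members, against 1032 and 915 CPM in free RNA, and all 13 had UMIs in both libraries. The per-cell sum ran from 0 to 12681 CPM for control members (median 2699) and from 0 to 9632 for haplodeficient members (median 2779). Hsd11b2, the enzyme that keeps cortisol-like steroids off the mineralocorticoid receptor, was seen in 65.8% and 75.4% of members.

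Among members, Hsd11b2 and Slc8a1, a sodium/calcium exchanger of the connecting tubule, varied together per cell (Spearman rho 0.75 over 114 control members and 0.74 over 61 haplodeficient members). These points share library and the division by each cell's depth, and the values are descriptions without a p. Aqp2, the water channel of principal cells, reached at least 3 UMIs in 39 control members (34.2%) and 14 haplodeficient members. Slc26a4 was at 678 CPM in those 39 control members and at 1020 CPM in the other 75, and at 790 and 875 CPM in the 14 and 47 of the haplodeficient library. The cells with Aqp2 were also deeper, with median UMIs of 26388 against 15895 in control and 41037 against 22630 in haplodeficient members. The part of doublets in these levels was not tested.

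Type B cells were a smaller share of the haplodeficient library. They made up 1.21% of kept control cells (114 of 9452, exact Clopper-Pearson interval 0.996% to 1.45%) and 0.608% of kept haplodeficient cells (61 of 10026, 0.466% to 0.781%). The difference was -0.598 percentage points (Newcombe interval -0.873 to -0.333). Without proximal tubule cells in the denominator the shares were 1.99% and 0.646%. Among cells with an Atp6v1g3 UMI and no Ptprc, the shares were 18.1% (114 of 630) and 14.7% (61 of 414), a difference of -3.36 points whose interval (-7.81 to 1.32) spans 0. A share cannot tell fewer type B cells from more cells of other kinds, and recovery during dissociation was not tested.

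Against type A cells the direction was the opposite. Type B cells were 52.5% of type A plus type B cells in the control library (114 of 217, 45.7% to 59.3%) and 72.6% in the haplodeficient library (61 of 84, 61.8% to 81.8%), a difference of 20.1 points (7.83 to 30.8). Type A cells alone went from 1.09% to 0.229% of kept cells and principal cells from 2.16% to 0.519%. With 1 Slc4a1 UMI enough to call a type A cell, the type B share was 46.2% and 57.5%, and the difference was 11.4 points (0.0243 to 22.3).

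**Figure D2:**
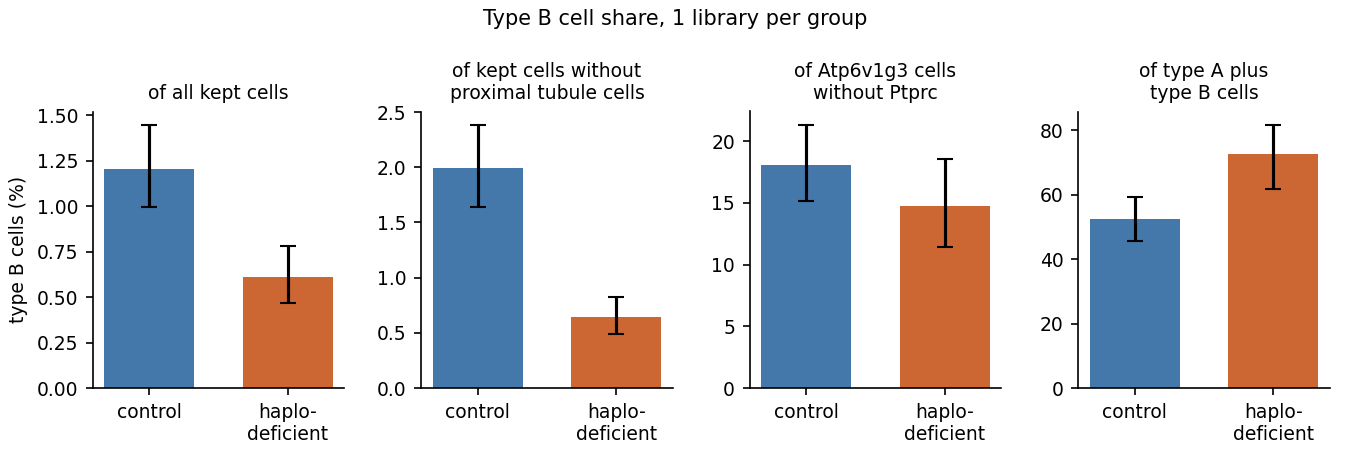
Type B cells as a percentage of 4 denominators, 1 bar per library, with exact Clopper-Pearson 95% intervals that cover counting error only. The haplodeficient bar is lower in the first 3 panels, with overlapping intervals in the third, and higher as a share of type A plus type B cells (72.6% against 52.5%).

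The conditions of the rule removed unequal parts of the libraries. The Ptprc limit removed 48 of 162 otherwise qualifying control cells (29.6%) and 59 of 120 haplodeficient cells (49.2%). Ptprc encodes CD45, the leukocyte surface phosphatase. The removed cells were deep (median 31414.5 and 38973 UMIs), and most held exactly 1 Ptprc UMI, 34 of the control and 35 of the haplodeficient cells. Of these, 1 and 3 cells held 10 or more UMIs of the 13 other leukocyte markers. Cells with 3 or more Ptprc UMIs numbered 7 and 13, and 6 and 8 of them passed that count. With no Ptprc limit the type B shares were 1.71% and 1.20% of kept cells.

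At the other limits, 18 control and 2 haplodeficient members held exactly 2 Slc26a4 UMIs, while 20 and 21 cells just outside held exactly 1. Cells just outside had Slc4a9 at 485 and 467 CPM and Hmx2 at 11.4 and 10.1 CPM. Members at exactly 2 had Slc4a9 at 579 and 1199 CPM. A further 30 and 13 cells met every condition but Slc4a1, and 7 and 4 of these held exactly 1 Slc4a1 UMI. In the 30 and 13 cells Aqp6 stood at 307 and 174 CPM beside Hmx2 at 170 and 59.5 CPM.

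For levels, UMIs of a gene were summed over the members of a library and divided by all their UMIs (2420170 in the control, 1849229 in the haplodeficient library). Log2 ratios are of haplodeficient over control levels with 5 CPM added to each, and ratios quoted with an interval have nothing added. Eligible genes, with an average of 50 CPM or more over both libraries and 30 or more UMIs in all, numbered 3777 and had a median log2 ratio of 0.06, with 56.0% of them above 0. A gene was past the size rule when its log2 ratio reached 1 in either direction and the exact Poisson 95% intervals of both levels did not overlap. By that rule 37 genes were higher (0.98% of eligible genes) and 39 lower (1.03%) in haplodeficient members. With mt- genes left out of the UMI total, the median of all eligible genes moved from 0.06 to -0.05 and the split to 27 higher and 50 lower. Leaving out genes with an expected free-RNA part of at least 20% made the split 37 and 20, and admitting genes from 10 CPM and 10 UMIs made it 78 and 158.

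The bicarbonate secretion genes lay slightly lower in haplodeficient members, none of them by the size rule. Of 20 listed genes all had a UMI and 13 were eligible. All 13 had a log2 ratio below 0 (beside 1660 of 3777 eligible genes). Of these 13 genes 0 were past the rule in either direction (beside 0.98% and 1.03% of eligible genes). Their median was -0.25, or -0.27 without Slc26a4. When every cell was given equal weight in place of every UMI, the median was -0.13, with 11 of 12 eligible genes below 0. After expected free RNA was subtracted the median was -0.32, with all 13 below 0. Without members of at least 3 Aqp2 UMIs the median was -0.25, with 2 of 12 eligible genes above 0. Pendrin's gene Slc26a4 (chr12:31519827-31559969, minus strand) was at 855 CPM in control and 848 CPM in haplodeficient members (ratio 0.992, 0.928 to 1.06). It chose the members, so this near-equality is not a finding. Its per-cell value ran from 0.378 to 111 UMIs per 10000 over control members (median 6.10) and from 0.587 to 42.1 over haplodeficient members (median 9.31).

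Slc4a9 (chr18:36528147-36556273, plus strand) was at 850 CPM in the control and 722 CPM in the haplodeficient members, a ratio of 0.849 (0.792 to 0.910). Its per-cell median was 6.83 UMIs per 10000 in control and 7.18 in haplodeficient members, so the order of the medians was the reverse of that of the summed levels. The single cells of the 2 libraries overlapped over nearly their whole range, 0 to 44.8 and 0.980 to 32.2. Slc4a8, a sodium-driven chloride/bicarbonate exchanger that works beside pendrin in salt uptake, was sparse, with 57 and 35 UMIs (23.6 and 18.9 CPM, ratio 0.804, 0.512 to 1.25). Slc4a7, a sodium/bicarbonate cotransporter, gave 8 and 7 UMIs.

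Carbonic anhydrases make bicarbonate and protons from carbon dioxide and water. Cytosolic Car2 was at 603 and 506 CPM (ratio 0.838, 0.771 to 0.910). Car12, bound to the cell membrane, was at 622 and 506 CPM (0.813, 0.748 to 0.882). Car15, another membrane-bound form, was at 622 and 462 CPM (0.744, 0.683 to 0.809), the lowest ratio among the 3. With every cell weighted equally the log2 ratios of Car12 and Car15 were -0.02 and -0.11, against -0.30 and -0.42 on summed counts. In thinned cells that of Car15 was 0.54. For ratios and list medians in thinned cells, the rule was applied anew to the thinned counts, leaving 69 control and 44 haplodeficient members. Percentages of members with a UMI after thinning are of the original members.

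Among the other chloride transport genes, Bsnd was at 41.3 and 31.9 CPM (ratio 0.772, 0.550 to 1.08). The endosomal exchanger Clcn5 was at 312 and 270 CPM (0.866, 0.772 to 0.970) and Clcn3 at 173 and 169 CPM. Cftr, the cystic fibrosis chloride channel, gave only 10 and 8 UMIs, and Slc26a11 16 in each library.

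Of the potassium channels, Kcnj16 was at 345 and 266 CPM (ratio 0.769, 0.686 to 0.860) and its partner Kcnj10 at 66.1 and 60.6 CPM. Among members with under 3 Aqp2 UMIs, the log2 ratios of both turned positive, 0.15 for Kcnj16 and 0.44 for Kcnj10. Kcnma1, a large-conductance channel, gave 8 UMIs in the control and 0 in the haplodeficient members, where 0 allows up to 1.62 CPM. The sodium pump beta subunit Atp1b1 was at 2168 and 1684 CPM (0.777, 0.743 to 0.812). The scaffold Slc9a3r1 was at 129 and 95.7 CPM (0.740, 0.612 to 0.893).

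**Figure D3:**
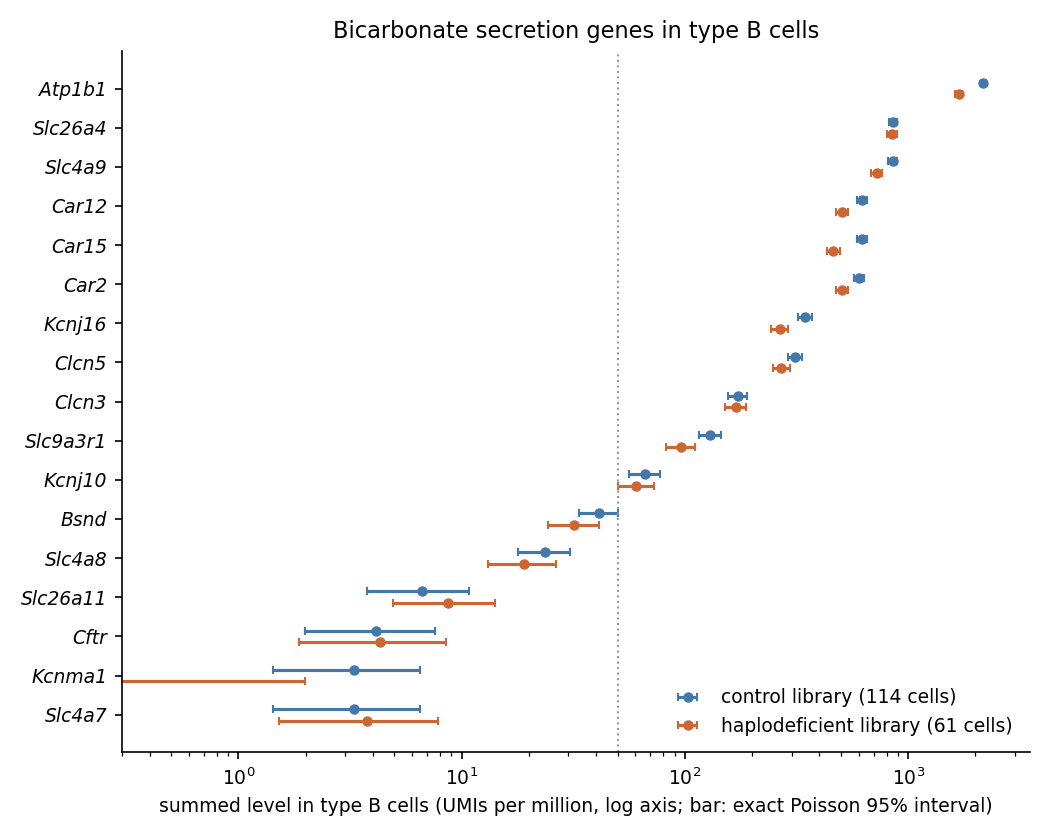
Summed level (CPM, log axis) of 17 of the 20 bicarbonate secretion genes in type B cells of each library, with exact Poisson 95% intervals and a dotted line at 50 CPM. Slc26a4 and Clcn3 overlap between libraries, whereas Car15, Kcnj16 and Atp1b1 lie lower in the haplodeficient library, and Kcnma1 has 0 UMIs there and shows only its interval.

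The bicarbonate list was also read in other cells of the same libraries, and no difference between cell types was tested. In type A cells, 5 of 12 eligible genes were higher and 7 lower, with a median of -0.09 beside 0.10 for all eligible genes. Slc4a9 was at 343 and 570 CPM there, and Car12 at 312 and 401 CPM. In principal cells 0 of 9 eligible genes were higher, with a median of -0.80 beside 0.06.

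Genes of the proton pump lay on both sides of 0. Of 19 eligible genes 10 were higher and 9 lower, none past the size rule, with a median of 0.08 that turned to -0.02 when mt- genes were left out of the total. Without Atp6v1g3, which chose the members, 9 were higher and 9 lower and the median was 0.02. The small subunit genes Atp6v0b, at 518 and 746 CPM (ratio 1.44, 1.33 to 1.56), and Atp6v0e, at 714 and 1017 CPM (1.42, 1.33 to 1.52), were higher, as were Atp6v1f (log2 ratio 0.47) and Atp6v1g1 (0.47). Atp6v1h was lower, at 231 and 167 CPM (0.721, 0.625 to 0.830), as was the catalytic subunit Atp6v1a, at 1082 and 816 CPM (0.754, 0.708 to 0.804). The intercalated-cell subunit Atp6v1b1 was at 213 and 251 CPM (1.18, 1.04 to 1.34). Atp6v1g3, used by the rule, was at 1997 and 2570 CPM.

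Among genes of alkali and hormone sensing, 5 of 17 eligible were higher (beside 56.0% of all eligible genes) and 12 lower. Their median was -0.33, or -0.07 in thinned cells. Pde1c, a calcium-activated phosphodiesterase, was the 1 past the size rule (beside 1.03% of all eligible genes), at 385 and 188 CPM (ratio 0.487, 0.430 to 0.552). Its log2 ratio of -1.02 only just reached the rule. The cell with most Pde1c UMIs held 19.8% of them in control and 17.0% in haplodeficient members. A Pde1c UMI was seen in 69.3% of control and 75.4% of haplodeficient members. Pth1r, the parathyroid hormone receptor, was at 85.9 and 50.3 CPM, and the aldosterone-induced kinase Sgk1 at 64.5 and 38.9 CPM. Nedd4l, a ubiquitin ligase that limits sodium channels, was at 1082 and 714 CPM, and the mineralocorticoid receptor Nr3c2 at 444 and 315 CPM. Insrr was at 102 and 93.6 CPM (0.920, 0.753 to 1.12) and Oxgr1, the receptor for oxoglutarate, at 84.3 and 66.0 CPM (0.783, 0.620 to 0.984).

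Hmx2 was the listed transcription factor with the widest gap between the libraries. It stood at 213 CPM in control and 75.7 CPM in haplodeficient members (ratio 0.356, 0.293 to 0.430, log2 ratio -1.43), past the size rule. Per cell, its UMIs ran from 0 to 60 over control and from 0 to 15 over haplodeficient members, with a median of 1 in both. Hmx2 stayed lower without the cell of most Hmx2 UMIs in each library (-1.38) and under equal weight of cells (-1.29). In thinned cells chosen anew its log2 ratio was -0.85. Esrrg, an estrogen-related receptor, was at 1345 and 847 CPM (0.630, 0.592 to 0.669), Foxp1 at 721 and 530 CPM, and Foxi1 at 276 and 211 CPM (0.763, 0.672 to 0.866). Tfcp2l1, another regulator of intercalated cells, was level at 733 and 742 CPM. Of 10 eligible factors 3 were higher (beside 56.0% of all eligible genes) and 7 lower, with a median of -0.15, or -0.60 in thinned cells.

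Type A genes in the members did not share 1 direction. Aqp6 (chr15:99601400-99605477, plus strand), named after its values were seen, gave 18 UMIs in 9 of 114 control members and 104 UMIs in 21 of 61 haplodeficient members. Its levels were 7.44 and 56.2 CPM (ratio 7.56, 4.56 to 13.3), under the 50 CPM mean for eligibility. Free RNA could account for 37.2% of the control and 0.264% of the haplodeficient Aqp6 UMIs. Within the haplodeficient members, 12 of the 21 cells with Aqp6 also held Hmx2. In thinned cells Aqp6 was seen in 1.79% of control and 9.84% of haplodeficient members, against 0.830% and 0.549% of macrophages. Kit was at 46.3 and 53.5 CPM, Tmem117 at 951 and 535 CPM (0.563, 0.522 to 0.606) and Adgrf5 at 164 and 208 CPM. Spink8, listed as a type B marker, was at 486 and 947 CPM (1.95, 1.81 to 2.10) in members and higher in principal cells too, at 527 and 2303 CPM.

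**Figure D4:**
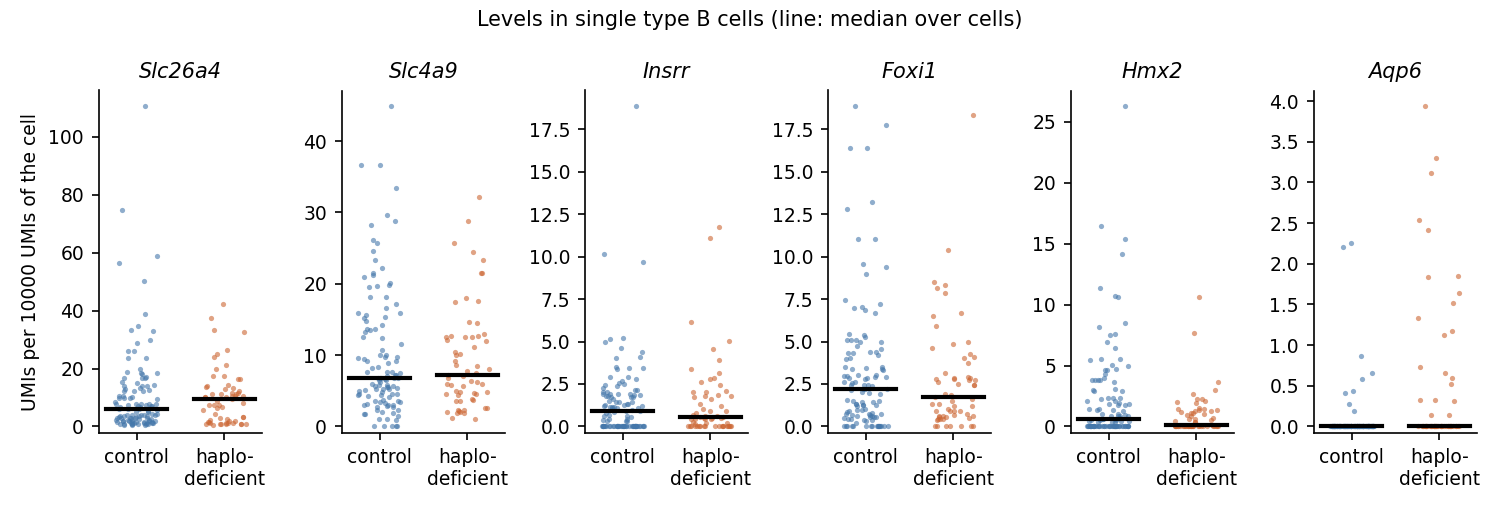
Levels of 6 genes in single type B cells, as UMIs per 10000 UMIs of the cell, with 1 point per cell (114 control, 61 haplodeficient) and a line at the median. Slc4a9 and Slc26a4 overlap between libraries, Hmx2 has its high cells mostly in the control library, and Aqp6 has a UMI in 34.4% of haplodeficient against 7.89% of control members.

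Principal cell genes in members were mostly lower in the haplodeficient library. Of 11 eligible genes 2 were higher (beside 56.0% of all eligible genes) and 9 lower, with a median of -0.37. Aqp2 was past the size rule, at 246 and 64.4 CPM (ratio 0.261, 0.213 to 0.319). Slc8a1 was at 1565 and 878 CPM, and Calb1, a calcium-binding protein of the connecting tubule, at 156 and 91.9 CPM. Fxyd4, a regulator of the sodium pump, was higher at 484 and 867 CPM, and Hsd11b2 at 988 and 1172 CPM. Without members of at least 3 Aqp2 UMIs the list median was 0.35.

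Interferon-response genes were higher in haplodeficient type B cells. Of 33 listed genes 14 were eligible, and all 14 were higher (beside 56.0% of all eligible genes). The size rule was passed by 7 (beside 0.98%), and the median was 1.03. Of those 14 genes 5, all among the 7, were under 50 CPM in control and eligible only through the haplodeficient library. They were Isg15, Oasl2, Rtp4, Ifit1 and Irf7. Over all 33 listed genes, with no level required, 31 were higher and 2 lower, with a median of 0.79. Isg15, a ubiquitin-like protein induced by interferon, was at 34.3 and 129 CPM (ratio 3.75, 2.91 to 4.88), with a UMI in 26.3% of control and 62.3% of haplodeficient members. Ifitm3, a membrane protein that blocks virus entry, was at 94.2 and 245 CPM (2.60, 2.21 to 3.06). Oasl2 was at 35.5 and 100 CPM (2.82, 2.17 to 3.68) and Rtp4 at 33.5 and 87.6 CPM (2.62, 1.99 to 3.46). In thinned cells chosen anew by the rule the log2 ratio of Rtp4 was -1.34, against 1.27 on all UMIs. Among the original members after thinning, 9.82% of control and 13.1% of haplodeficient cells held an Rtp4 UMI. Ifit1, Ifi27 and Irf7 were the other 3 past the rule, and Irf1 (0.12) lay lowest. Leukocyte markers summed to 17.8 CPM in control and 42.2 CPM in haplodeficient members, with Cd3e and Nkg7 at 0 in both and Ptprc at 0 by the rule, against 1321 and 8014 CPM in free RNA, and their part in the interferon values was not tested.

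Eligible genes that present antigen were higher too, 6 of 6 (beside 56.0% of all eligible genes). The rule was passed by 1 (beside 0.98%), and the median was 0.67. Over all 19 listed, 13 were higher and 6 lower, with a median of 0.17. The class I heavy chains H2-D1, at 285 and 591 CPM (2.08, 1.89 to 2.29), and H2-K1, at 346 and 644 CPM, led the list, and their partner B2m was at 236 and 355 CPM. Of 6 eligible chemokine and inflammatory genes, 4 were higher and 2 lower, with a median of 0.44 that was 0.05 when mt- genes were left out of the total. Cxcl10, a chemokine for T cells, was at 33.5 and 84.4 CPM (2.52, 1.92 to 3.34) in 24.6% and 36.1% of members, and the NF-kB inhibitor Nfkbia at 337 and 710 CPM (2.11, 1.93 to 2.30). Both were past the rule (beside 0.98% of all eligible genes), Cxcl10 being eligible only through the haplodeficient library. Icam1 was at 150 and 130 CPM.

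Eligible genes of tubular injury were higher with 1 exception. Of 17 eligible genes 16 were higher (beside 56.0% of all eligible genes), 2 of them past the rule (beside 0.98%), with a median of 0.68. Cdkn1a, which encodes the cell-cycle inhibitor p21, was at 214 and 494 CPM (2.30, 2.07 to 2.57). S100a6, a calcium-binding protein, was at 510 and 1072 CPM (2.10, 1.96 to 2.26), and the intermediate filament gene Krt18 at 649 and 1216 CPM (1.87, 1.76 to 2.00). A single cell held 37.4% of the control and another 27.7% of the haplodeficient S100a6 UMIs. Spp1, which encodes osteopontin, was the exception, with a log2 ratio of -0.28. All 6 eligible genes of urinary defence were higher (beside 56.0% of all eligible genes), none past the rule, with a median of 0.45. Over the 15 with a UMI, 12 were higher and 3 lower, with a median of 0.15. Wfdc2 was at 1412 and 2382 CPM, and Lcn2, the iron-trapping lipocalin, at 638 and 964 CPM.

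In type A cells the interferon, antigen presentation and injury medians were 0.94, 1.02 and 0.53, and in principal cells 1.53, 1.34 and 0.62. All these cells come from the same 2 libraries, so the values stand side by side and count as 1 comparison.

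**Figure D5:**
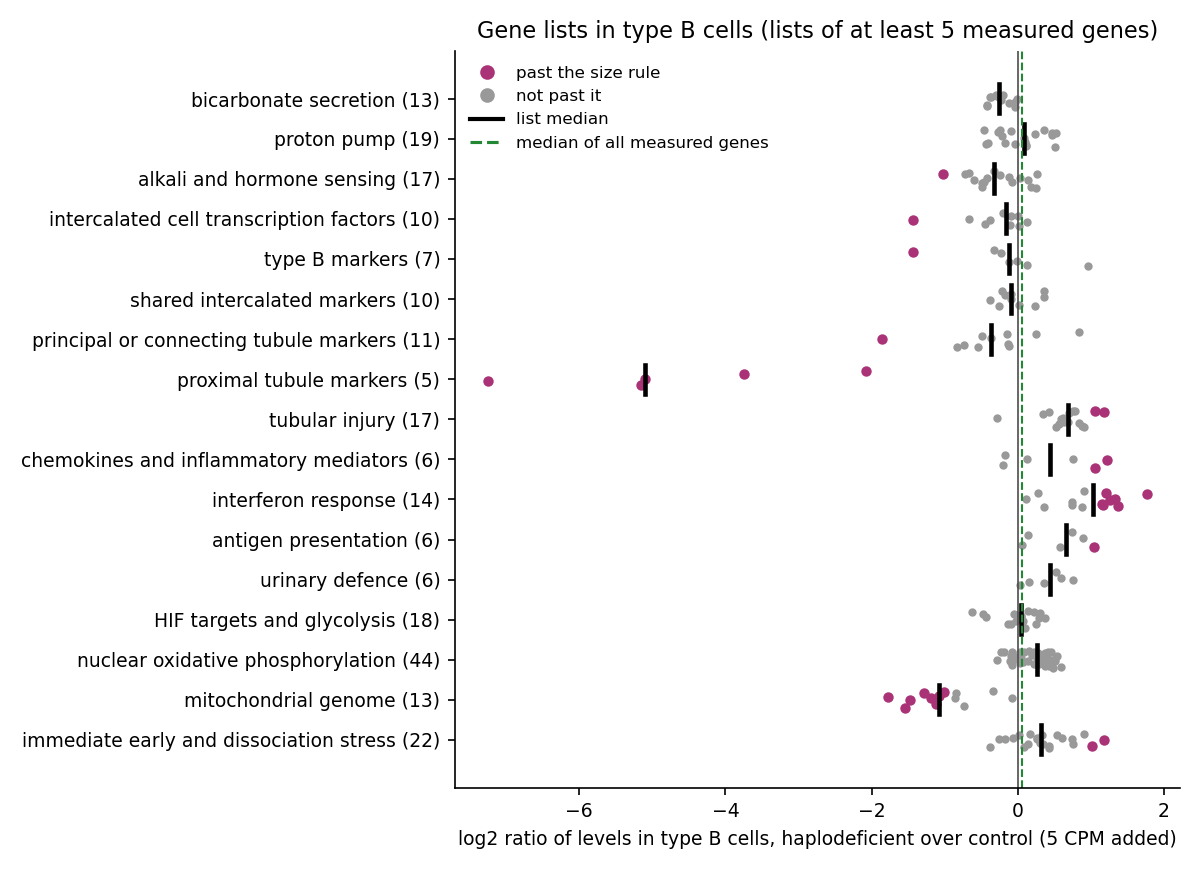
Log2 ratio (haplodeficient over control, 5 CPM added) of each eligible gene in type B cells by gene list, for lists with at least 5 eligible genes (number in brackets); black bars are list medians and the dashed line is the median of all eligible genes, 0.06. Bicarbonate secretion genes lie just below 0 (median -0.25), interferon genes near 1 (median 1.03), and proximal tubule and mitochondrial genome genes lowest.

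Genes of hypoxia and glycolysis, many of them targets of hypoxia-inducible factors, were split 10 higher and 8 lower, with a median of 0.05 that was -0.05 when mt- genes were left out of the total. Ndrg1 was at 614 and 397 CPM, the glucose transporter Slc2a1 at 80.2 and 56.2 CPM, and the kinase Pdk1 at 51.2 and 68.1 CPM, none past the rule. Nuclear genes of oxidative phosphorylation had 34 of 44 higher (beside 56.0% of all eligible genes), none past the rule. Their median was 0.27, or 0.03 in thinned cells. Genes of the mitochondrial genome were all lower, 13 of 13 (beside 1660 of 3777 eligible genes). The rule was passed by 8 (beside 1.03% of eligible genes), and the median was -1.07. Among them mt-Co3 was at 21406 and 7697 CPM and mt-Nd3 at 4686 and 1362 CPM. Type A and principal cells each had 11 of 13 lower, with medians of -1.03 and -0.87. Over all kept cells the median mitochondrial share was 10.2% in control and 2.72% in haplodeficient cells. In members, immediate early and stress genes had 18 of 22 higher (beside 56.0% of all eligible genes), with a median of 0.32, or 0.19 in thinned cells. Hspb1, a small heat-shock protein (150 and 344 CPM), and Klf2 (132 and 274 CPM) were past the rule (beside 0.98% of eligible genes). Atf3, also on this list, was at 1688 and 3175 CPM.

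Outside the lists, the highest log2 ratio was that of Rpl29, a ribosomal protein gene, at 86.4 and 354 CPM (4.10, 3.50 to 4.81), with log2 ratios of 2.19 in type A and 1.85 in principal cells. Sprr2f, a cornified-envelope protein gene, was at 38.8 and 161 CPM, with a UMI in 14.0% of control and 37.7% of haplodeficient members. Cryab, a small heat-shock protein, was at 190 and 563 CPM (2.97, 2.66 to 3.32), with log2 ratios of 1.54 in members, 0.08 in type A cells and 1.08 in principal cells. The others of the highest 10 were Isg15, Oasl2, Ddit4l, Ifitm3, Emp2, Plac8 and Tmsb10. Whether Cryab differs between members and type A cells in this respect was not tested.

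Most of the lowest ratios were of genes abundant in free RNA. Of the 39 lower genes 8 were mitochondrial, and 16 others had an expected free-RNA part of at least 20% in a library. Of the lowest 10 genes 8 belong to these 16, among them Kap, Slc34a1, Acsm2, Slc13a1, Spink1, Cltrn and Lrp2. Kap, an androgen-regulated proximal tubule gene, gave 2631 UMIs in control members and 4 in haplodeficient members. On summed counts the expected free-RNA part of the former was 100%. However, a single control member held 27.5% of them, and the part of free RNA in single cells was not tested. Proximal tubule markers summed to 3025 CPM in control and 283 CPM in haplodeficient members, against 22892 and 2518 CPM in free RNA. The highest per-cell sum was 41134 CPM in control and 3593 CPM in haplodeficient members. The remaining 15 lower genes were Pfkfb3, Egfem1, Noct, Nfia, Ror1, Kl, Pde1c, Klk1, Hmx2, 4930469K13Rik, Ypel2, Coch, Aqp2, Neat1 and AC149090.1.

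Coch, which encodes the secreted protein cochlin (chr12:51593341-51605771, plus strand), gave 327 UMIs in 39 of 114 control members and 22 UMIs in 11 of 61 haplodeficient members. The levels were 135 and 11.9 CPM (ratio 0.0881, 0.0544 to 0.136), and without the cell of most Coch UMIs in each library the log2 ratio was -3.21. Free RNA could account for 1.03% of the control UMIs. In thinned cells Coch was seen in 12.5% of control and 3.28% of haplodeficient members, against 0.277% and 0.235% of macrophages. Gene 4930469K13Rik (chr11:33973961-34098554, minus strand) gave 403 UMIs in only 13 control members, up to 96 in a cell, and 8 UMIs in 2 haplodeficient members. Its annotated span ends 106 kb from that of Foxi1 on the same strand. In thinned cells 4930469K13Rik was seen in 8.93% of control and 1.64% of haplodeficient members, against 2.49% and 2.59% of macrophages. Type A cells held 3 and 0 UMIs of Coch and 0 and 0 of 4930469K13Rik.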

How the data were processed

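Both libraries are droplet 3′ single-cell RNA-seq. The deposited matrices give unnormalized UMI counts for each gene in each barcode. Per the file headers the authors used Cell Ranger 4, and per the submitters' processing notes build mm10. Of 32285 features, 32235 matched GENCODE M21 (GRCm38), from which positions were taken. Barcodes were kept from 500 UMIs and 200 genes upward, with mitochondrial genes taking no more than 50% of UMIs, which left 9452 control and 10026 haplodeficient cells. No doublet caller was run, and 2 alternatives leave out the 10% of members most like doublets.

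Counts were summed over the members of a library (Python 3, numpy, scipy). Intervals are 95% and exact (Poisson for levels, Clopper-Pearson for shares, conditional binomial for ratios) or Newcombe's for differences of shares. The free-RNA profile came from barcodes holding 1 to 100 UMIs and was scaled by markers of other cell types. Gene summing and intervals were tested on simulated Poisson counts without variation between cells, so the intervals were not tested against such variation. Named genes are all bicarbonate secretion genes with a UMI, up to 4 eligible genes per other list with the largest absolute log2 ratio, the 10 highest and 10 lowest ratios, and the 10 genes most apart from type A cells in each direction. A few genes that this rule names are not reported here by name, but they stay in all counts and medians. The other genes named were chosen after their values were seen. Members and lists were chosen with earlier results of these data known.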

Additional observations from a re-analysis of the deposited data

Results flagged for a closer look

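Of the bicarbonate secretion genes, 3 had ratios of haplodeficient over control levels on opposite sides of 1 in type B and type A cells, with neither interval reaching 1. Slc4a9 had a ratio of 0.849 (0.792 to 0.910) in type B and 1.66 (1.44 to 1.91) in type A cells. Car12 had 0.813 (0.748 to 0.882) and 1.28 (1.09 to 1.51). Clcn5 had 0.866 (0.772 to 0.970) and 1.44 (1.24 to 1.67). The type B side depends on how cells are weighted. In single type B cells the median of Slc4a9 was 6.83 UMIs per 10000 in control and 7.18 in haplodeficient members, the reverse order. That of Car12 was 3.88 and 3.75. Each ratio rests on 1 library per group, type A cells numbered 103 and 23, and the difference between the cell types was not tested.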

How the results depend on the processing

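No paired analysis was possible because each group has 1 library, and for the same reason no replicate could be left out. The share difference of -0.598 points became -0.308 in cells thinned to 2000 UMIs, -1.34 without proximal tubule cells in the denominator and -3.36 among Atp6v1g3 cells. It stayed within its interval under the other 9 alternatives, and the type B share of type A plus type B cells under all 11. The 76 genes past the size rule became 236 with a filter of 10 CPM and 10 UMIs and 38 with a filter of 100 CPM, and ranged from 53 to 110 under the other 17. The genes themselves changed more than that count. In thinned cells, with 1377 genes eligible, 55 passed and 20 of these were among the 76. Without the Ptprc limit 43 of 53 were, and without members of at least 3 Aqp2 UMIs 55 of 110. With median-of-ratios scaling 70 of 74 were. The bicarbonate secretion median of -0.25 became -0.38 in thinned cells and -0.13 with equal weight of cells, and was below 0 under all 19. Rtp4 reversed in thinned cells chosen anew by the rule (-1.34). Among the original members after thinning, 9.82% of control and 13.1% of haplodeficient cells held an Rtp4 UMI. The alternatives on Ptprc, Aqp2, free-RNA genes and the cell with most UMIs of a gene were chosen after seeing the data. Depth limits most the sparse exchangers and channels, such as Slc4a7, Cftr and Kcnma1, with 8 to 10 control UMIs each.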

Other observations

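Secretin receptor transcripts (Sctr), which mark type B cells in other settings, gave 15 UMIs in control and 6 in haplodeficient members. Soluble adenylyl cyclase (Adcy10), a bicarbonate sensor, was at 19.0 and 7.03 CPM (ratio 0.370, 0.183 to 0.696), and the calcium-sensing receptor gene Casr at 36.8 and 24.3 CPM (0.662, 0.452 to 0.957). Each of these genes was under the level for eligibility, and each was named after its values were seen.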
